A study of Mus musculus with 8 samples.

Results

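The CREB pathway genes described here are 10 genes that couple neuronal activity to transcription: *Creb1*, *Crem*, *Atf1*, *Atf2* and *Atf3*, which encode DNA-binding factors, *Crtc1*, *Crtc2* and *Crtc3*, which encode the CRTC coactivators, and *Crebbp* and *Ep300*, which encode the acetyltransferases CBP and p300. They were found by gene name among the 45706 genes of the deposited tables, and all 10 passed the filter on low counts that left 17495 genes to test. Ribosome-bound polyA RNA of PV+ interneurons, the fast-spiking inhibitory cells that express parvalbumin, was sequenced in 4 samples from mice given CNO and 4 samples from mice given vehicle. The comparison asks which mRNAs change in PV+ interneurons when their own activity is raised.

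All mice of both groups carried the genotype PvalbFlp/+;Neurod6Cre/+ and had received an AAV of the flox-fdio type for HA-RPL10a and myc-hM3Dq in S1, the primary somatosensory cortex, as newborn pups. The virus carries the human synapsin promoter and is switched on by Flp, which these mice express from the *Pvalb* locus, and switched off by Cre, which they express in pyramidal cells from the *Neurod6* locus. It delivers a ribosomal protein with an HA tag, through which ribosomes are pulled down, together with hM3Dq, a designer receptor that raises neuronal firing when its ligand CNO binds. The vehicle mice carried the same receptor. Mice aged P42 to P70 were given CNO at 1 mg/kg or vehicle in 5 injections over about 48 h, the last on the morning of the experiment. Infection was sparse, and the infected cortex of 4 brains was pooled for each sample. Nothing in the labels ties a replicate to a litter or a day, so p-values measure the spread between these pooled samples.

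CREB1 binds the cAMP response element (CRE), a short DNA motif in many promoters of activity-dependent genes. Calcium and cAMP act on it along separate arms: kinases phosphorylate CREB1 so that it binds CBP or p300, and the phosphatase calcineurin releases CRTC proteins from the cytoplasm so that they enter the nucleus and bind the DNA-binding domain of CREB1. Both switches work on proteins that are already present, whereas *Crem*, through its inducible repressor ICER, and *Atf3* are themselves transcribed when the pathway is active.

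Reads counted on genes came to between 44064161 and 49413273 per sample. Counts were compared after TMM normalization, which rescales libraries to a common composition, and are given as CPM, counts scaled to the size of the library, or as TPM, which divides by transcript length and lets genes be compared with each other. *Fos*, the standard marker of recent activity, was 12.9 ± 2.01 CPM with vehicle and 49.1 ± 16.4 CPM with CNO (SD, n = 4 each). *Pvalb* lay between 819.7 and 1160.4 TPM in 7 samples and at 300.1 TPM in vehicle replicate 1. *Slc17a7*, the vesicular glutamate transporter of pyramidal cells, was present at 331 to 547 TPM, so the pulldown also held RNA of cells in which the virus is meant to be off. In a bulk pulldown, fewer cells of a type and less RNA per cell cannot be told apart.

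The sequence of the *Atf3* promoter is shown because *Atf3* was the member that moved most, with those of *Atf1*, the only other member with the same motif in the promoter tables used here, and *Fos*, a textbook CREB target, for comparison. The full CRE is TGACGTCA, and its 5-base core motif is TGACG, or CGTCA on the opposite strand. RefSeq promoters on GRCm38.p6, which run from 250 bases before to 50 bases after the start of transcription, were matched by symbol to 8 of the 10 genes, all but *Crem* and *Crtc2*. None of these 8 windows held the full CRE on either strand, and 2 held the core motif. Over all 32851 promoters in the table the shares were 1.79% for the full motif and 20.8% for the core motif, which lies inside the full motif as well. The *Atf3* stretch covers chr1:191183334-191183433 on the minus strand and ends at the base before the start, with the core motif 7 bases before the start. This start lies inside the gene as GENCODE draws it, which begins farther upstream. The *Atf1* stretch covers chr15:100227749-100227793 on the plus strand, with the core motif 90 bases before the start. The *Fos* stretch covers chr12:85473741-85473848 on the plus strand, with core motifs 129 and 66 bases before the start. Capitals mark core motifs, and each sequence is read 5′ to 3′ along the gene.
Atf3: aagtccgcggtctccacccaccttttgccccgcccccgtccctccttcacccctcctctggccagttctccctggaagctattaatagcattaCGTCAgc
Atf1: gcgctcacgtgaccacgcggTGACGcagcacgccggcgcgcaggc
Fos: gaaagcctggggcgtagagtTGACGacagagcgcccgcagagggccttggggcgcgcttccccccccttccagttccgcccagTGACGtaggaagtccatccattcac
A match of these letters is a description of the promoter and says nothing of binding in these cells.

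The 10 genes covered a wide range of levels. *Atf2* was the most abundant, with a mean of 98.8 TPM over the 8 samples, followed by *Crtc1* at 40.8 TPM, *Crtc2* at 31.6 TPM, *Ep300* at 30.8 TPM and *Creb1* at 25.7 TPM. *Crem* at 18.8 TPM, *Crebbp* at 18.2 TPM, *Atf1* at 13.2 TPM and *Crtc3* at 10.4 TPM lay below them, and *Atf3* came last at 0.988 TPM. Between neighbours in this order, the ranges over the 8 samples were separate only between *Atf2* and *Crtc1*, between *Creb1* and *Crem* and between *Crtc3* and *Atf3*. *Crtc2* was above *Ep300* in only 3 of 8 samples, and *Crem* was above *Crebbp* in 4 of 8. *Ep300* was above *Creb1*, which encodes the name-giving factor of the pathway, in 6 of 8 samples.

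**Figure D1:**
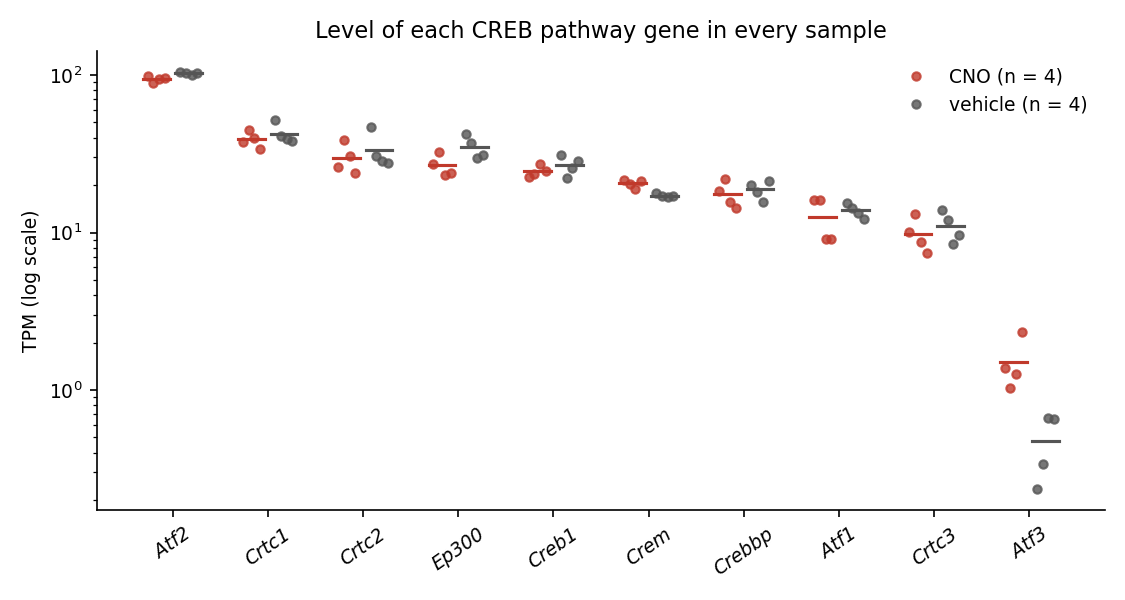
TPM of the 10 CREB pathway genes on a log axis, ordered by mean level, with 1 point per sample, CNO in red and vehicle in grey, and the group mean as a bar. *Atf3* has by far the lowest level, and its 4 CNO points (1.04 to 2.33 TPM) lie above its 4 vehicle points (0.234 to 0.661 TPM).

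A gene was called where its adjusted p was under 0.05, its fold change over 1.5 and its mean level over 1 TPM. By these criteria none of the 10 genes was called, as 0 of all 17495 genes were (0%, edgeR's quasi-likelihood test with Benjamini-Hochberg adjustment), whereas the likelihood ratio test on robust dispersion called 12 genes and DESeq2 called 10, none of them among the 10. At an unadjusted p under 0.05, 1 of the 10 stood out, *Atf3*, and it was higher with CNO; over all tested genes 716 did so, or 4.09%, made up of 1.44% higher and 2.65% lower. In 2 of the 10, *Atf3* and *Crem*, all 4 CNO samples lay above all 4 vehicle samples in CPM, against 2.42% of all genes without overlap in either direction. In TPM, 3 of the 10 did not overlap, *Atf3* and *Crem* higher and *Atf2* lower, against 3.17%. The median log2 fold change of the 10 was -0.03, and 0.0014 over all tested genes. The median absolute log2 fold change was 0.07 for the 10 and 0.14 for all tested genes.

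**Figure D2:**
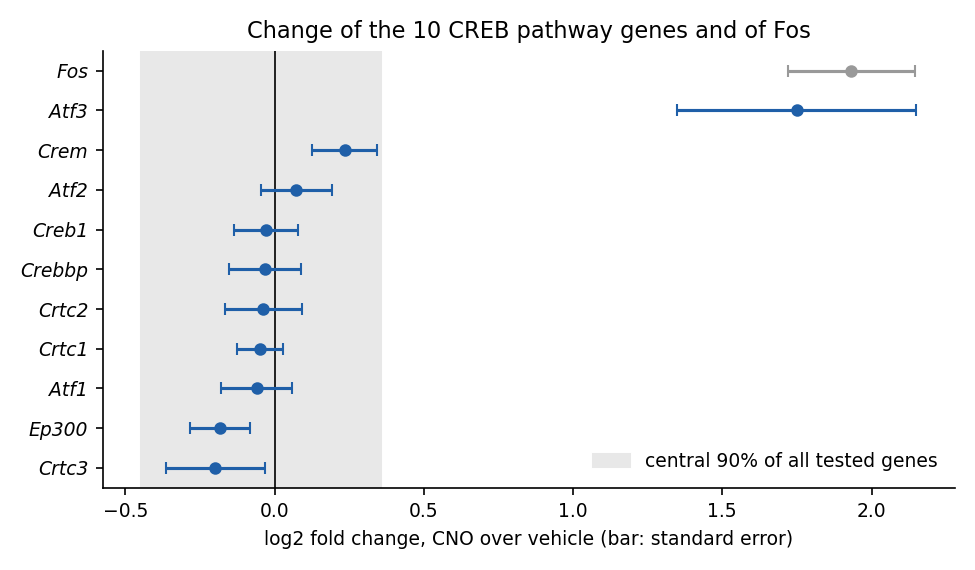
Log2 fold change of each gene, CNO over vehicle, with its standard error as a bar (n = 4 each), and the central 90% of all tested genes shaded from -0.45 to 0.36. *Atf3* (1.75) lies far outside this range beside *Fos* (1.93), while the other 9 members lie inside it.

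*Atf3* encodes a stress- and activity-inducible factor that often acts as a repressor of its own and other CRE genes. Its reads numbered 56, 39, 51 and 98 in CNO replicates 1 to 4, and 8, 13, 27 and 25 in vehicle replicates 1 to 4. Every CNO sample was above every vehicle sample, and the nearest pair of counts was 39 and 27. In TPM the CNO samples were at 1.38, 1.04, 1.27 and 2.33, and the vehicle samples at 0.234, 0.339, 0.661 and 0.656. The mean level was 1.29 ± 0.536 CPM with CNO and 0.380 ± 0.182 CPM with vehicle (SD, n = 4 each). On the log2 scale the change was 1.75 (standard error 0.40), or 3.36-fold with a 95% interval of 1.82 to 6.20. The p was 0.00117 before and 0.817 after adjustment over all genes by edgeR's quasi-likelihood test, and *Atf3* ranked 11 of 17495 by p. A two-sided exact permutation test of the log2 CPM gave p = 0.0286, the smallest p that 4 against 4 samples allow. Only 0.0457% of tested genes had a larger change in either direction.

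The rise of *Atf3* rested on few reads. Its lowest count, 8, has an exact Poisson 95% interval of 3.45 to 15.8 reads, and its highest, 98, one of 79.6 to 119.4 reads, which cover counting error only. The mean of 0.988 TPM lay just under the level of 1 TPM asked of a called gene. The robust dispersion that the study's methods name, with edgeR's likelihood ratio test, gave an adjusted p of 0.0230, and DESeq2's Wald test 0.0459, so that under either test the level alone kept *Atf3* from being called. Over the 18 alternatives, its adjusted p ranged from 0.0230 to 1.00, and its unadjusted p was under 0.05 in all 18. Leaving out 1 sample at a time moved its log2 fold change between 1.43, without CNO replicate 4, and 1.99, without vehicle replicate 3. The lowest value over the alternatives was 0.75, from limma on log2(TPM + 1), a scale that understates the change of a gene near 1 TPM, and with 0.1 added it was 1.51. *Atf3* (ENSMUSG00000026628) lies on chromosome 1 of GRCm38 from 191170296 to 191218039, and none of its 31-base stretches occurs in another gene. A short gene, *Gm24748*, overlaps it on the opposite strand, and the library kit does not mark strand.

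*Crem* encodes activators and, from an internal promoter, the short repressor ICER. It had 531, 455, 471 and 519 reads in CNO replicates 1 to 4 and 410, 450, 389 and 433 in vehicle replicates 1 to 4. After normalization the CNO samples were at 11.3, 9.61, 10.1 and 10.9 CPM and the vehicle samples at 9.17, 9.61, 8.08 and 8.74 CPM. The groups did not overlap in CPM, but CNO replicate 2 and vehicle replicate 2 were equal to 3 significant digits, with 9.614 and 9.608 CPM. In TPM the gap was wider, with 18.9 to 21.6 with CNO and 16.7 to 17.7 with vehicle. The log2 fold change was 0.23 (standard error 0.11), or 1.18-fold with a 95% interval of 0.997 to 1.39, and the quasi-likelihood test gave an unadjusted p of 0.0536 and an adjusted p of 0.817. The two-sided exact permutation test gave p = 0.0286. The unadjusted p of *Crem* was under 0.05 in 6 of 18 alternatives and lay between 0.0153 and 0.154. The antisense gene *Gm6225* overlaps *Crem* and shares 6.57% of its 31-base stretches. Gene totals do not separate ICER from the longer *Crem* mRNAs.

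**Figure D3:**
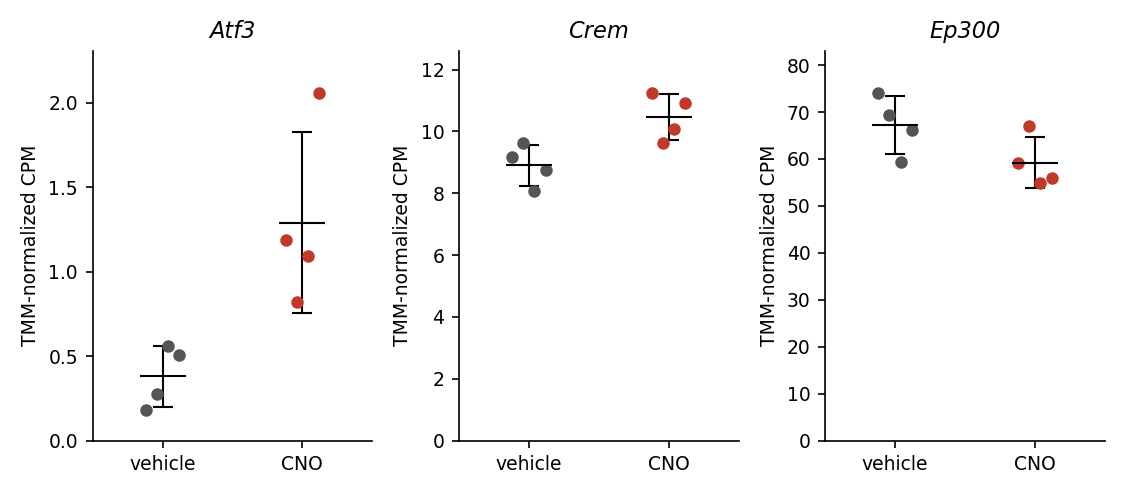
TMM-normalized CPM of *Atf3*, *Crem* and *Ep300* in each sample, with the group mean and SD (n = 4 each) and each axis starting at 0. *Atf3* and *Crem* do not overlap between the groups, though the nearest *Crem* samples of the groups almost touch, and 3 of 4 CNO samples of *Ep300* are below its lowest vehicle sample (59.3 CPM).

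*Creb1* and *Atf1* encode the constitutive factors that pair with each other and with CREM. *Creb1* (chromosome 1, 64532645 to 64604548) ranged from 57.6 to 72.4 CPM with CNO and from 56.9 to 71.1 CPM with vehicle. The change was -0.03 on the log2 scale (standard error 0.11, 95% interval -0.26 to 0.21), or 0.833-fold to 1.15-fold. *Atf1* (chromosome 15, 100227819 to 100261244) ranged from 8.01 to 10.1 CPM with CNO and from 8.92 to 10.4 CPM with vehicle, with a change of -0.06 on the log2 scale (standard error 0.12). For *Atf1*, 16.9% of the 31-base stretches occur in other genes, mostly in the pseudogene *Atf1-ps*, so its reads are uncertain. Within the summed TPM of *Creb1*, *Crem* and *Atf1*, the share of *Crem* was 34.0% to 38.6% in the CNO samples and 27.5% to 31.8% in the vehicle samples, without overlap. The sum itself was 57.6 ± 2.89 TPM with CNO and 57.8 ± 4.64 TPM with vehicle (SD, n = 4 each).

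*Atf2* encodes a factor that binds CRE-like sites and is activated by the stress kinases JNK and p38. In CPM its CNO samples were at 129.0, 99.3, 127.3 and 134.8, and its vehicle samples at 100.7, 116.8, 124.2 and 124.8, so the groups overlapped. Its log2 fold change from counts was 0.07 (standard error 0.12, unadjusted p of 0.559). In TPM the CNO samples were at 98.8, 88.7, 94.5 and 95.9, and the vehicle samples at 105.1, 103.7, 99.97 and 103.4, each vehicle sample above each CNO sample. The direction for *Atf2* thus turned with the unit, to -0.12 from limma on log2(TPM + 1). Counts over TPM give the transcript length that the authors' quantification used for each gene in each sample. Taken relative to the median shift of all genes in each sample, this length was 0.12 log2 units longer with CNO for *Atf2*. That difference was exceeded in size by 7.32% of 17409 genes. The groups overlapped in this length. The same difference was 0.13 for *Ep300* and -0.10 for *Crem*, also with overlap between the groups.

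The CRTC genes did not change beyond the spread between replicates. *Crtc1*, the main CRTC gene of the brain, ranged from 65.2 to 68.7 CPM with CNO and from 67.1 to 72.4 CPM with vehicle, with a change of -0.05 on the log2 scale (standard error 0.08, 95% interval -0.22 to 0.12). *Crtc2*, best known from liver gluconeogenesis, had a change of -0.04 (standard error 0.13, 95% interval -0.32 to 0.24). *Crtc3* had the lowest value of the 10 genes, -0.20 (standard error 0.16, 95% interval -0.56 to 0.16), and its CNO range of 13.0 to 17.6 CPM lay inside the vehicle range of 12.8 to 21.1 CPM. Without vehicle replicate 1, the library with low *Pvalb*, the log2 fold change of *Crtc3* was -0.07 and that of *Crtc2* was 0.08. The 3 genes kept their proportions: *Crtc1* made up 49.9% ± 2.54 of their summed TPM with CNO and 49.3% ± 2.46 with vehicle, *Crtc2* 37.7% ± 2.11 and 38.1% ± 2.33, and *Crtc3* 12.4% ± 1.42 and 12.6% ± 1.34 (SD, n = 4 each).

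CBP and p300, encoded by *Crebbp* and *Ep300*, acetylate histones at enhancers and promoters and bind phosphorylated CREB1. *Ep300* (chromosome 15, 81585351 to 81652077) was at 59.2, 67.0, 54.9 and 55.9 CPM in CNO replicates 1 to 4 and at 74.1, 69.3, 59.3 and 66.3 CPM in vehicle replicates 1 to 4. CNO replicate 2 overlapped the vehicle samples, and the other 3 lay below all of them. The log2 fold change of *Ep300* was -0.18 (standard error 0.10), with an unadjusted p of 0.0981 by the quasi-likelihood test and p = 0.114 by the two-sided exact permutation test. *Ep300* was lower with CNO in all 18 alternatives, with an unadjusted p under 0.05 in 4 of them, both limma fits on TPM included. Those limma fits gave log2 fold changes of -0.38 and -0.39, into which the longer transcript length of *Ep300* with CNO also enters. *Crebbp* (chromosome 16, 4081328 to 4213997) was at 87.2, 94.7, 74.5 and 70.9 CPM with CNO and at 84.5, 80.6, 73.0 and 96.6 CPM with vehicle. Its groups overlapped widely, and its log2 fold change was -0.03 (standard error 0.12). *Crebbp* made up 39.6% ± 1.40 of the summed TPM of the pair with CNO and 35.1% ± 3.94 with vehicle (SD, n = 4 each), ranges that overlapped.

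Several of the 10 genes varied from sample to sample with the balance between PV+ interneuron and pyramidal cell markers in the pulldown. A marker index was taken as the difference in mean log2 CPM between 12 markers of PV+ interneurons and 12 markers of pyramidal cells. The first 12 include *Gad1*, *Gad2* and *Slc32a1*, which inhibitory neurons express in general, so the index is not specific to PV+ cells. It was 1.70, 0.99, 1.53 and 2.15 in CNO replicates 1 to 4 and -0.17, 1.13, 1.55 and 1.42 in vehicle replicates 1 to 4. The groups overlapped, vehicle replicate 1 lay lowest and CNO replicate 4 highest. Over the 8 samples, *Crtc1* (r = -0.90), *Crtc2* (r = -0.91), *Crtc3* (r = -0.88) and *Ep300* (r = -0.85) were lower where the index was higher, whereas *Atf2* (r = 0.86) and *Atf3* (r = 0.83) were higher. Spearman's rho for these 6 genes was between -0.86 and -0.83 or, for *Atf2* and *Atf3*, 0.90 and 0.81. The exact permutation p of r was 0.00206 for *Ep300*, 0.00231 for *Crtc3*, 0.00171 for *Crtc1*, 0.00144 for *Crtc2*, 0.000694 for *Atf2* and 0.00623 for *Atf3*, and adjusted over the 10 genes it was 0.00461 for the first 5 and 0.0104 for *Atf3*. The exact permutation p of rho ranged from 0.00456 to 0.0218, and adjusted over the 10 genes it was 0.0308, or 0.0363 for *Atf3*. Orders were taken over all 8 samples, so a difference between groups shared by a gene and the index enters these p-values.

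Such correlations were common among all genes. Of 17471 tested genes other than these markers, 20.8% had r above 0.8 and 9.75% had r below -0.8, against 2 and 4 of the 10 CREB pathway genes. Leaving out vehicle replicate 1 and CNO replicate 4, the samples farthest from the median index, left r at -0.74 for *Crtc1*, -0.69 for *Crtc2*, -0.83 for *Crtc3*, -0.78 for *Ep300*, 0.90 for *Atf2* and 0.48 for *Atf3*. The relation of *Atf3* over all 8 samples therefore rested in part on those 2 samples. Measured as deviations from the group means, r was 0.92 for *Atf3*, 0.88 for *Atf2* and -0.99 for *Crtc2*. It was -0.87 for *Crtc1*, -0.86 for *Crtc3* and -0.80 for *Ep300*. These values include vehicle replicate 1 and CNO replicate 4. *Creb1* (r = 0.09), *Crem* (r = 0.37), *Crebbp* (r = -0.38) and *Atf1* (r = -0.65) had larger permutation p-values of r, from 0.0662 to 0.820, and of rho, from 0.115 to 0.752.

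**Figure D4:**
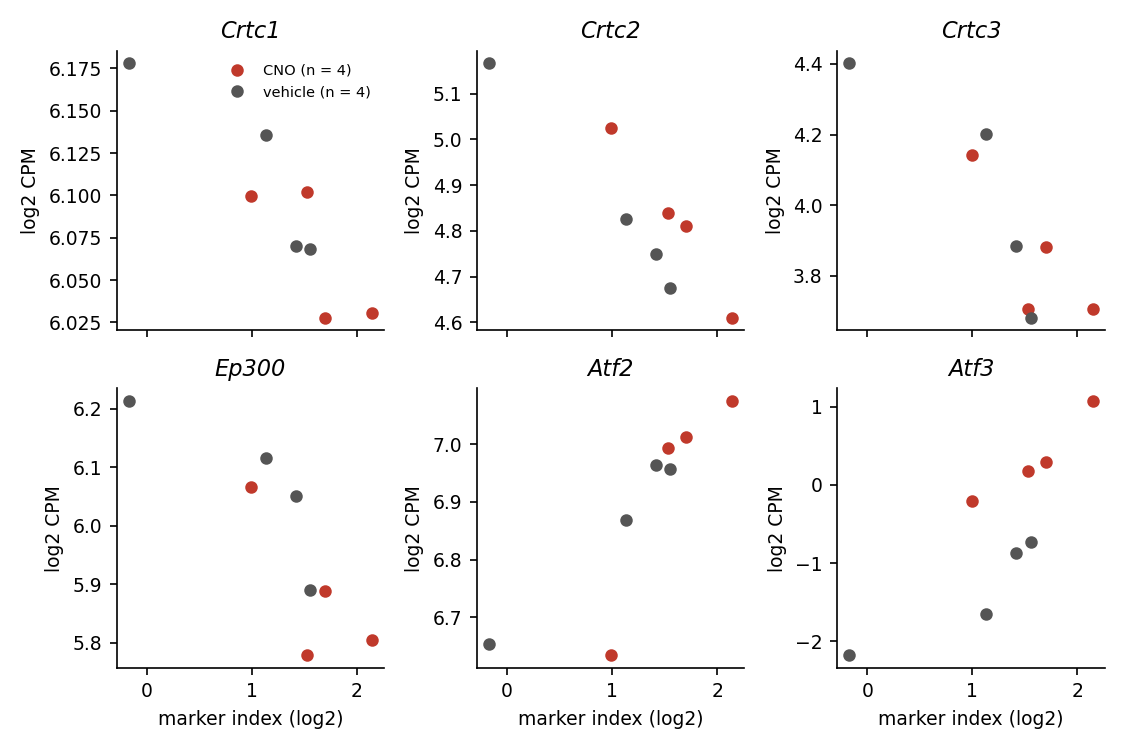
Log2 CPM of 6 genes against the marker index (PV+ interneuron minus pyramidal cell markers, log2 units), 1 point per sample, CNO in red and vehicle in grey, each panel with its own vertical axis. The 3 CRTC genes and *Ep300* fall and *Atf2* and *Atf3* climb along the index, vehicle replicate 1 is the point at -0.17, and the CNO points of *Atf3* lie above the vehicle points at a like index.

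With the index as a term in the model, the log2 fold change was 1.20 for *Atf3* (standard error 0.28, unadjusted p of 0.00135, adjusted p of 1.00 by edgeR's quasi-likelihood test) and 0.23 for *Crem*. For *Ep300* it was -0.08, and for *Crtc2* and *Crtc3* it turned to 0.15 and 0.03. The summed level of the 12 PV+ interneuron markers ranged from 2646 to 4146 TPM with CNO and from 1270 to 3294 TPM with vehicle, and all 12 had a log2 fold change above 0, 1 of them (*Gad2*) at an unadjusted p under 0.05. The 12 pyramidal cell markers summed to 1419 to 1957 TPM with CNO and 1608 to 2290 TPM with vehicle, and 11 of them had a log2 fold change below 0, none at an unadjusted p under 0.05. Oligodendrocyte markers summed to 602 to 1080 TPM and 833 to 1071 TPM, astrocyte markers to 496 to 578 TPM and 509 to 635 TPM, microglia markers to 73.6 to 110.7 TPM and 93.9 to 126.4 TPM, blood vessel markers to 48.6 to 139.5 TPM and 76.8 to 108.9 TPM, and markers of other interneurons to 605 to 701 TPM and 695 to 812 TPM, with CNO and with vehicle in that order. All 8 oligodendrocyte and all 8 microglia markers had a log2 fold change below 0, as had 5 of 8 astrocyte markers and 5 of 8 markers of other interneurons, whereas 7 of 8 blood vessel markers were above 0. An unadjusted p under 0.05 was reached by *P2ry12* of microglia and by *Lamp5* and *Reln* of other interneurons, all lower with CNO, *Lamp5* without overlap. No marker was at 0 in all samples, and their part in the changes of *Atf3*, *Crem* and *Ep300* beyond the term for the index was not tested.

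The samples also differed between replicates 1 and 2 and replicates 3 and 4 of both groups, a division for which the labels give no reason. In that comparison 142 of 17495 genes had an adjusted p under 0.05 by edgeR's quasi-likelihood test, without a cut-off on fold change or level. An unadjusted p under 0.05 was reached by 2834 of the 17495 genes. The marker index was 1.70 and 0.99 in CNO and -0.17 and 1.13 in vehicle replicates 1 and 2. In replicates 3 and 4 it was 1.53 and 2.15 with CNO and 1.55 and 1.42 with vehicle. The division and the index are therefore not separate descriptions of the samples, and the part of the index in this difference was not tested. *Crtc3* was lower in replicates 3 and 4 by a log2 difference of -0.42 (unadjusted p of 0.00285, adjusted p of 0.103 by edgeR's quasi-likelihood test), and *Atf3* was higher by 0.87 (unadjusted p of 0.0152, adjusted p of 0.197). Lower in replicates 3 and 4 by that test were also *Crtc2* (-0.24, unadjusted p of 0.0424) and *Ep300* (-0.19, unadjusted p of 0.0453). Their adjusted p was 0.289 and 0.297. Within replicates 1 and 2 the difference of *Atf3* between CNO and vehicle was 1.96 in mean log2 CPM, and within replicates 3 and 4 it was 1.43. For *Crem* these values were 0.15 and 0.32, and for *Ep300* -0.19 and -0.18. For *Crebbp* they were 0.14 and -0.21, of opposite sign. With 2 samples a side, none of these was tested.

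Of 26 genes for kinases that act on CREB1, among them the subunits of protein kinase A, 14 had a log2 fold change above 0 and 12 below, and none had an unadjusted p under 0.05. *Prkar1b*, a regulatory subunit of protein kinase A and the most abundant of them, had a value of 0.16 on the log2 scale (standard error 0.16). None of 11 genes for kinases and phosphatases that act on CRTC proteins had an unadjusted p under 0.05, and *Ppp3ca*, the catalytic subunit of calcineurin, had -0.14 (standard error 0.11). In each of these lists the median log2 fold change was within 0.01 of 0. Across the alternatives the first list held 0 to 2 genes at an unadjusted p under 0.05 and the second 0 to 1. With a share of 4.09% over all tested genes, counts of 0 in lists of this size do not set them apart.

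Among 18 genes listed under cAMP synthesis and breakdown, 13 had a log2 fold change below 0, and the median was -0.14. The list also holds *Pkig*, its most abundant gene (-0.18, standard error 0.09), which encodes an inhibitor of protein kinase A and not an enzyme of cAMP. An unadjusted p under 0.05 was reached by 2 of the 18, both phosphodiesterases, which degrade cyclic nucleotides. Both were lower with CNO, as 2.65% of all tested genes were. Pyramidal cell markers had a like median of -0.13, with 11 of 12 below 0, and all 8 oligodendrocyte and all 8 microglia markers were below 0. The part of these markers in the values of the cAMP genes was not tested. *Pde4b* was 84.4 ± 11.4 CPM with CNO and 108.9 ± 14.2 CPM with vehicle (SD, n = 4 each), without overlap, and fell by 0.37 on the log2 scale (standard error 0.13, unadjusted p of 0.0150, adjusted p of 0.817 by edgeR's quasi-likelihood test). *Pde10a* was 51.1 ± 7.39 CPM with CNO and 68.1 ± 11.8 CPM with vehicle, with overlap, and changed by -0.42 on the log2 scale (standard error 0.14). Across the alternatives the list held between 1 and 5 such genes.

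Genes known to carry CRE sites were the list with the most movement around these factors. Of 30 such genes, which include *Atf3* and *Crem*, 10 were higher and 1, *Penk*, was lower with CNO at an unadjusted p under 0.05. In CPM, 6 of the 30 lay without overlap above vehicle. Over all tested genes 1.44% were higher and 2.65% lower at that threshold, and 2.42% lay without overlap in either direction. Without *Atf3* and *Crem*, 9 of 28 were higher and 1 was lower, with a median of 0.28 on the log2 scale. None was called after adjustment, and the list was chosen with earlier results of these data known, so its direction is not independent evidence. The 5 with the lowest p were *Fos* (1.93), *Th*, the rate-limiting enzyme of catecholamine synthesis (1.72), *Fosb* (1.88), *Dusp1*, a phosphatase that switches off MAP kinases (1.17), and *Atf3* (1.75), in log2 fold change. *Egr1*, an immediate early gene and the most abundant of the list, was 255.9 ± 50.2 CPM with CNO and 243.5 ± 56.3 CPM with vehicle, a change of 0.07 on the log2 scale (standard error 0.18). The count at an unadjusted p under 0.05 ranged from 10 to 14 across the alternatives.

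**Figure D5:**
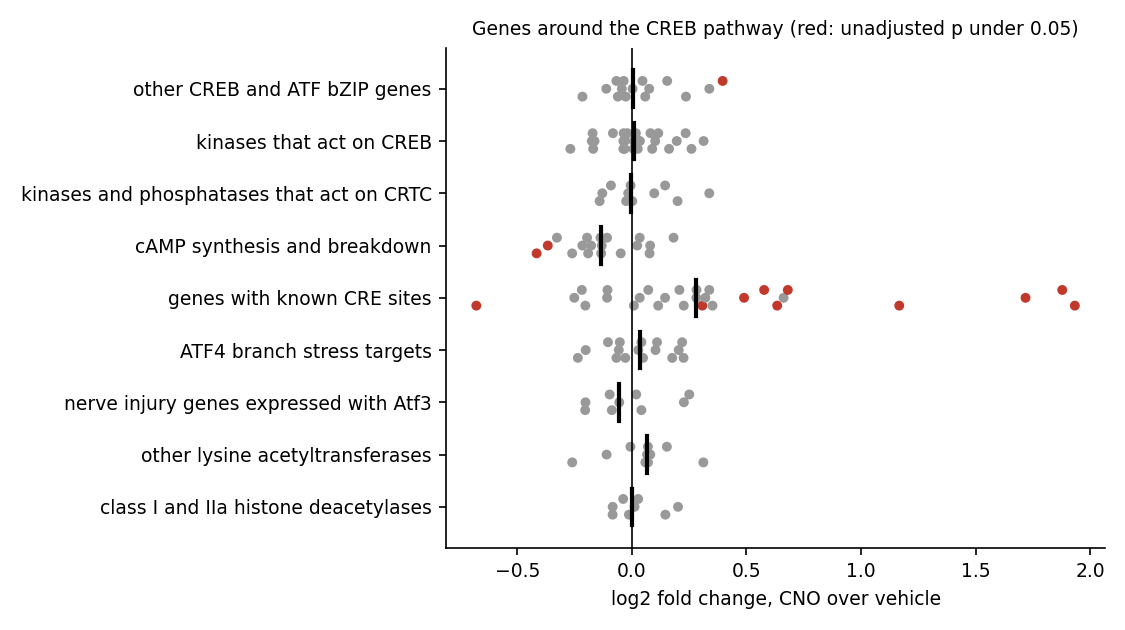
Log2 fold change, CNO over vehicle, of the genes in 9 lists around the CREB pathway, without the 10 genes themselves, 1 point per gene, red at an unadjusted p under 0.05, with the median of each list as a black line. Red points gather in the list of genes with known CRE sites (10 of 28, against 4.09% of all tested genes). The lists of kinases, stress targets, acetyltransferases and deacetylases hold none.

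Other lists concern further roles of these genes. Among 16 targets of the ATF4 branch of the stress response, through which *Atf3* is also induced, none had an unadjusted p under 0.05, the median log2 fold change was 0.04, and *Asns*, asparagine synthetase, had 0.22 (standard error 0.14). Among 9 tested of 12 genes that injured neurons express together with *Atf3*, none did either, and the median was -0.05. Across the alternatives these lists held 0 to 1 and 0 to 2 such genes, and at the share of 4.09% over all tested genes a count of 0 does not set either apart. Of 15 tested among 18 other CREB and ATF genes, 1 did: *Creb3l2*, a membrane-bound factor of the secretory pathway, was 7.80 ± 0.521 CPM with CNO and 5.93 ± 0.738 CPM with vehicle (SD, n = 4 each), without overlap. The change was 0.40 on the log2 scale (standard error 0.13), with an unadjusted p of 0.0106 and an adjusted p of 0.817 by the quasi-likelihood test. None of 10 other lysine acetyltransferases and none of 8 histone deacetylases, the enzymes that oppose CBP and p300, had an unadjusted p under 0.05. Across the alternatives the first list held 0 to 2 such genes and the second 0. At the share of 4.09%, counts of 0 do not set these short lists apart either.

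The genes whose log2 CPM over the 8 samples followed *Atf3* most closely, among 15173 genes with a mean above 1 TPM, were *Dusp1* (r = 0.97), *Anks1* (0.97), *Nab1* (0.96), *Rnf44* (0.96) and *Mustn1* (0.96). Their log2 fold changes were 1.17, 0.35, 0.40, 0.15 and 1.63 in that order. Those nearest *Crtc1* were *Gm28928* (r = 0.99), *Gm26563* (0.99), *Sox8* (0.97), *Rhog* (0.97) and *Fam131a* (0.97), all with a log2 fold change between -0.52 and -0.15. Among pairs of the 10 genes, *Crtc3* and *Ep300* had the highest correlation, with r = 0.93 over the 8 samples. These values describe 8 libraries that share groups and the spread of the marker index, and carry no test.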

How the data were processed

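RNA-seq of immunoprecipitated ribosomes from S1 was analysed in 4 CNO and 4 vehicle samples, grouped by the labels. The authors' pipeline used FastQC, Trim Galore, STAR with the GRCm38 genome, Salmon and tximport. The authors deposited estimated counts per gene without normalization or filter, and TPM values from the same quantification. Both were read into R 4.3.3, where the counts but not the TPM values were rounded. A gene was left out where 4 or more samples had under 10 counts. TMM normalization and the quasi-likelihood test of edgeR 4.0.16 with Benjamini-Hochberg adjustment were used. Intervals at 95% come from the t distribution with the degrees of freedom of that fit. The depth of 44064161 to 49413273 counts sets a floor of 3 counts at 0.0607 to 0.0681 CPM. Single values were compared over the 70 assignments of 4 samples against 4 and correlations over 40320 orders. Log2 values of single samples used a prior count of 2. Alternatives were the likelihood ratio test with robust dispersion, DESeq2 1.42.0, RLE factors, library size only, no filter, limma 3.58.1 on log2 TPM with 1 or 0.1 added, other covariates, other cut-offs and each sample left out. The tests were tested on simulated data. Gene positions and shared 31-base stretches came from GENCODE mouse release 21 (GRCm38), which holds 45143 of the 45706 identifiers, and promoter sequences from RefSeq on GRCm38.p6. The 10 genes, the lists and the tests were chosen with earlier results of these data known. Named besides the 10 genes were, in each list, the most abundant gene and up to 5 genes with the lowest unadjusted p under 0.05, and the 5 genes most like *Atf3* and *Crtc1*. *Penk* was named outside this rule after its value was seen. Promoter motifs of the 8 matched genes were set beside the shares over all promoters, and no test between gene groups was made.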

Additional observations from a re-analysis of the deposited data

Results flagged for a closer look

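*Creb1* in vehicle replicate 2 stood apart from its group. Its level there was 5.83 log2 CPM, and the other 3 vehicle samples lay between 6.14 and 6.15 log2 CPM. The gap to the nearest of them was 0.949 of the range of the group, above Dixon's 95% critical value for 4 samples. Among 22 groups tested in this way, 1 was beyond the critical value, and chance gives about 1 in 20.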

How the results depend on the processing

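None of the 10 genes was called under any of the alternatives, although *Atf3* had an adjusted p of 0.0230 with the likelihood ratio test on robust dispersion and 0.0459 with DESeq2. *Atf3*, *Crem*, *Crtc1* and *Ep300* kept their direction in all 18 alternatives. Of 180 values of the 10 genes, 13 turned direction. These were *Atf2* with limma on log2 TPM (-0.12 with 1 and -0.13 with 0.1 added) and, with the marker index as a term, *Atf2* (-0.072), *Atf1* (0.021), *Crtc2* (0.148), *Crtc3* (0.029) and *Crebbp* (0.025). With 1 sample left out, *Creb1* ranged from -0.11 to 0.029 (without CNO replicate 2), *Crebbp* from -0.11 to 0.044 (without vehicle replicate 4), with 0.010 without CNO replicate 3 and 0.023 without CNO replicate 4, and *Crtc2* from -0.11 to 0.075 (without vehicle replicate 1), with 0.018 without CNO replicate 4. The cause was not tested.

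Over all genes, the likelihood ratio test called 12, DESeq2 called 10, the fit without a filter on low counts called 4 and the fit with a term for replicates 1 and 2 against 3 and 4 called 3, against 0 in the quasi-likelihood test. With 1 sample left out it called 0 to 2. Of the 10 genes, 1 had an unadjusted p under 0.05 in the quasi-likelihood test, 2 with DESeq2, 2 with RLE factors, 2 with the term for replicates 1 and 2 against 3 and 4, 3 with either limma fit, and 1 to 3 with 1 sample left out. Same-numbered samples deviated from their group means with correlations of 0.03, -0.03, 0.16 and 0.24. These were not all over 0.1, and not every sample correlated best with its own number, so the numbers were not taken as pairs, although replicates 3 and 4 of one group deviated with those of the other (0.08 to 0.33). With the replicate block 0 genes and 0 of the 10 were called, and 1 of the 10 had an unadjusted p under 0.05. Depth limits *Atf3* most, with 8 to 98 reads a sample, whereas the other 9 genes had at least 374.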
